A study of Mus musculus with 6 samples.

Results

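The genes described here are 7 genes that podocytes use to build and hold the slit diaphragm and its actin cytoskeleton: Nphs1, Podxl, Synpo, Wt1, Magi2, Ptpro and Plce1. They were chosen by name, and all 7 were found among the 34714 gene symbols measured. RNA came from whole kidney, with 3 samples of wild-type and 3 of Hspa8 knockout mice, all aged 8 weeks and fed normal chow. The wild-type titles name C57, and the suppliers' strains listed for the study include C57BL/6J, Hspa8 flox/flox mice made on C57BL/6J, and Cdh16-Cre mice. The labels do not state the full genotype of each knockout sample, whether the wild-type mice carried Cre or the floxed allele, or the sex of any animal. Cdh16 encodes a cadherin of kidney tubule epithelium, so Cre under its promoter is a tool for tubule cells, and podocytes lie outside that epithelium. In whole kidney, fewer podocytes and less RNA per podocyte cannot be told apart.

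Podocytes are the epithelial cells that wrap the capillaries of the glomerulus, the filter of the kidney. Their interlocking foot processes are bridged by the slit diaphragm, a zipper of nephrin and its relatives that is tied to actin inside the cell. Mutations in several of these genes cause nephrotic syndrome, in which the filter leaks protein. The 7 genes take different roles. Nphs1 encodes nephrin, the adhesion molecule of the slit itself. Magi2 encodes a scaffold protein that binds nephrin. Podxl encodes podocalyxin, the charged sialomucin of the foot process surface, which endothelial cells also make. Synpo encodes synaptopodin, an actin-associated protein of the foot process, and Ptpro encodes GLEPP1, a receptor tyrosine phosphatase on the apical surface. Plce1 encodes phospholipase C epsilon, a signalling enzyme needed in the developing filter, and Wt1 encodes a zinc finger transcription factor that podocytes keep through adult life and that drives several of the other genes.

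Levels are given in FPKM, a fragment count divided by transcript length and by the mapped total of its library, so they can be compared between genes. Library sums ran from 381586 to 417123 FPKM, and 20715 to 21277 genes had a value above 0. Read totals are lost in this unit, and the depth behind each value is unknown. Hspa8, the targeted gene, ranged from 1058 to 1318 FPKM over the wild-type libraries and from 650.1 to 781 FPKM over the knockout ones, apart in the direction its labels give. On the first principal component, which held 47.5% of the variance, wild-type replicate 3 (23.0) and knockout replicate 2 (10.6) stood highest, against -13.4 to 0.212 in the others. Summed globin and Alas2 transcripts of red cells ran from 43.3 to 53.4 FPKM in wild-type and from 69.4 to 545 FPKM in knockout libraries. Nothing in the labels ties the 3 samples of a group to separate animals, and the p-values therefore describe the spread between samples, which may be technical.

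Podocyte transcripts were a small part of these whole-kidney libraries, and their levels covered a wide range. Podxl was the most abundant with a mean of 35.6 FPKM over the 6 libraries. Synpo followed with 9.62 FPKM, Nphs1 with 4.78 FPKM, Wt1 with 2.94 FPKM, Ptpro with 2.30 FPKM, Magi2 with 1.13 FPKM and Plce1 with 0.840 FPKM. The ranges over libraries of Podxl, Synpo and Nphs1 did not overlap with one another, whereas those of Nphs1 and Wt1, of Wt1 and Ptpro, and of Magi2 and Plce1 did. Within each of the 6 libraries Nphs1 was nonetheless above Wt1, and Wt1 above Ptpro. For comparison, the proximal tubule phosphate transporter Slc34a1 had a mean of 1749.9 FPKM in wild-type kidney.

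None of the 6 members that could be tested differed between knockout and wild-type kidney past the threshold, and the 2 groups overlapped for all 7. The means of 6 genes were lower in the knockout, at 73.9% to 84.4% of wild-type, and that of Magi2 was higher at 113%. A mean below wild-type was common, since 64.9% of all tested genes had one. So was overlap of the groups. They lay apart in 8.57% of tested genes with the knockout lower and in 2.01% with it higher. The test was limma on log2(FPKM + 1) over the 12174 genes with a mean of at least 1 FPKM, with Benjamini-Hochberg adjustment. It called 0 genes at an adjusted p of 0.05 (0% of those tested), and 629 genes (5.17%) had an unadjusted p under 0.05. Hspa8, the targeted gene, was not called either, at a log2 fold change of -0.70 (limma adjusted p = 0.866). The lack of calls among the members therefore does not show that they were unchanged. The mean of Plce1 lay under the 1 FPKM limit. Among the other members Podxl alone had an unadjusted limma p under 0.05. It kept this in 7 of 16 alternative settings, none of which equalised library sums, medians or quantiles. The smallest adjusted p of a member was 0.96. The median log2 fold change over the 7 genes was -0.20, against -0.04 over all tested genes. Leaving out wild-type replicate 1 took it to -0.35, and leaving out knockout replicate 1 to -0.33.

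**Figure D1:**
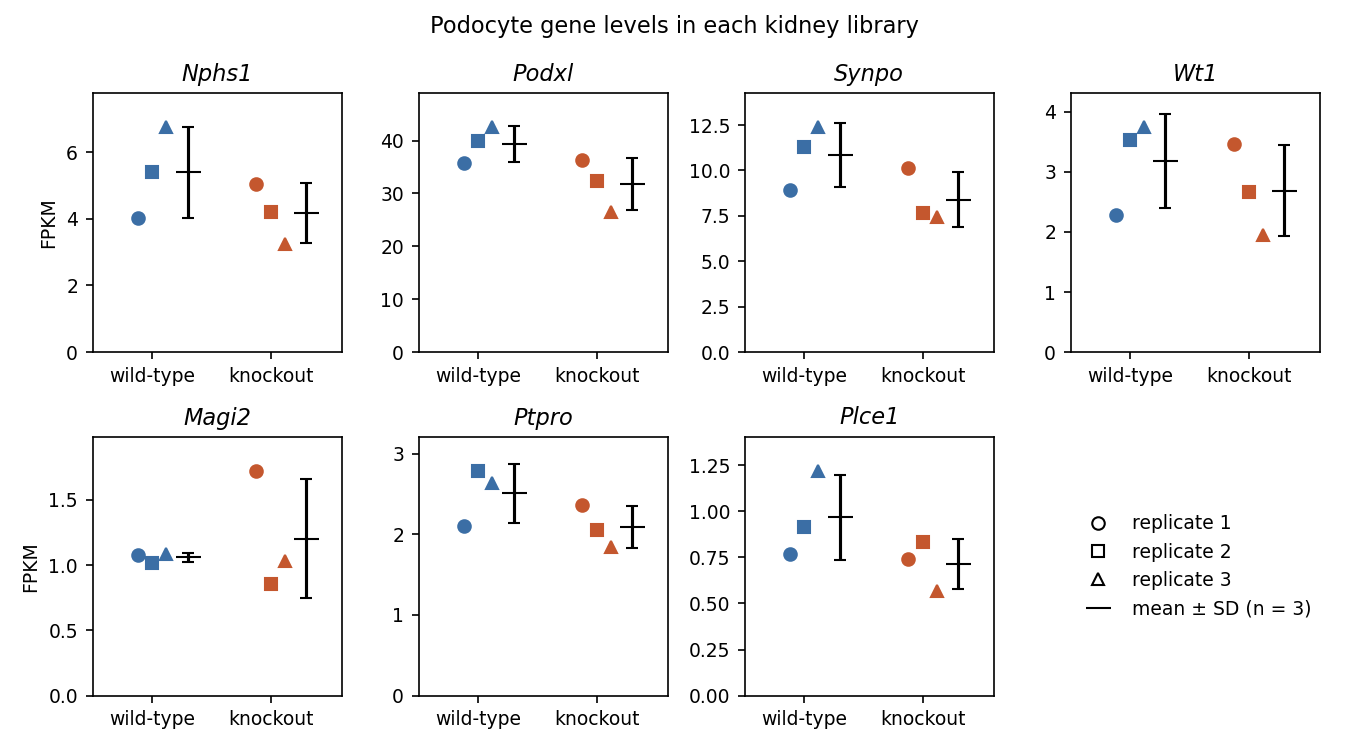
FPKM (vertical axes, from 0) of the 7 podocyte genes in each of the 3 wild-type (blue) and 3 knockout (orange) libraries, with symbols for the replicate number and black bars for the mean ± SD. The groups overlap in every panel, and the lone high value of Magi2 is knockout replicate 1 at 1.72 FPKM.

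Nephrin transcript spanned a 2.08-fold range over the libraries. Nphs1 (chromosome 7, 30458207 to 30488623 in GRCm38.p6) gave 4.03, 5.42 and 6.75 FPKM for wild-type replicates 1, 2 and 3, and the knockout replicates in the same order gave 5.04, 4.20 and 3.25 FPKM. Wild-type replicate 1 was thus lower than knockout replicates 1 and 2, while the extremes were wild-type replicate 3 and knockout replicate 3. Wild-type kidney averaged 5.40 ± 1.36 FPKM and knockout kidney 4.16 ± 0.899 FPKM (SD, n = 3 each). The log2 fold change was -0.30 with a 95% interval from -0.72 to 0.11 (limma adjusted p = 0.995), and an exact two-sided permutation test gave p = 0.3. It was -0.46 with wild-type replicate 1 left out, -0.15 with wild-type replicate 3 and -0.17 with knockout replicate 3. The antisense gene Nphs1os lies within Nphs1, and its highest value was 0.124 FPKM. The sources used here do not state whether counting used strand, so reads of the pair cannot be told apart.

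Magi2, whose product anchors nephrin, did not follow it. Magi2 (chromosome 5, 19219387 to 20704792) gave 1.07, 1.02 and 1.09 FPKM for wild-type replicates 1, 2 and 3, and the knockout replicates in the same order gave 1.72, 0.855 and 1.03 FPKM. The wild-type libraries had an SD of 0.0358 FPKM, and knockout replicate 1 stood alone above them. The log2 fold change was 0.08 with a 95% interval from -0.26 to 0.42 (limma adjusted p = 0.998), and it was -0.086 with knockout replicate 1 left out, 0.19 with knockout replicate 2 and 0.13 with knockout replicate 3. Magi2 is transcribed in many tissues, and whether these reads come from podocytes was not tested.

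Podxl and Synpo are genes of the cell surface and of the actin bundles. Podxl (chromosome 6, 31519493 to 31563937) gave 35.7, 39.8 and 42.5 FPKM for wild-type replicates 1, 2 and 3, and the knockout replicates in the same order gave 36.4, 32.4 and 26.5 FPKM. Only knockout replicate 1 reached into the wild-type range. The log2 fold change of Podxl was -0.31 with a 95% interval from -0.60 to -0.02, an interval not adjusted for the number of genes (limma p = 0.041, adjusted p = 0.96), and the exact permutation test gave p = 0.2. Leaving out knockout replicate 3 took the log2 fold change to -0.19, no longer under 0.05 by the unadjusted test. With library sums, medians or quantiles equalised the unadjusted limma p of Podxl was 0.056, 0.081 and 0.065, in that order. With a replicate block in the fit it was 0.071.

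Synpo, on chromosome 18, gave 8.90, 11.3 and 12.4 FPKM for wild-type replicates 1, 2 and 3, and the knockout replicates in the same order gave 10.1, 7.64 and 7.41 FPKM. Here too knockout replicate 1 was the single knockout library within the wild-type range. Wild-type kidney averaged 10.8 ± 1.78 FPKM of Synpo and knockout kidney 8.39 ± 1.50 FPKM (SD, n = 3 each), a log2 fold change of -0.34 with a 95% interval from -0.68 to 0.0036 (limma adjusted p = 0.971). Its unadjusted limma p was 0.052, and it was 0.013 with wild-type replicate 1 left out and 0.0137 with knockout replicate 1 left out. With wild-type replicate 3 and knockout replicate 2 both left out the log2 fold change was -0.19. Ptpro (chromosome 6, 137252299 to 137464634), the phosphatase, varied least of the 7 on the log2 scale, with 2.10, 2.79 and 2.63 FPKM in the wild-type libraries and, in the same order, 2.37, 2.06 and 1.85 FPKM in the knockout libraries. Its log2 fold change was -0.18 with a 95% interval from -0.44 to 0.08 (limma adjusted p = 0.996).

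The transcription factor gene Wt1 (chromosome 2, 105126529 to 105173614) gave 2.29, 3.52 and 3.74 FPKM for wild-type replicates 1, 2 and 3, and the knockout replicates in the same order gave 3.46, 2.66 and 1.95 FPKM. Wild-type replicate 1 was lower than 2 of the 3 knockout libraries. The log2 fold change was -0.18 with a 95% interval from -0.61 to 0.24 (limma adjusted p = 0.998). Single libraries decided its size. It was -0.35 with wild-type replicate 1 left out, -0.12 with wild-type replicate 2, -0.085 with wild-type replicate 3, -0.33 with knockout replicate 1 and -0.033 with knockout replicate 3.

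Plce1 (chromosome 19, 38481034 to 38785105) had a mean under 1 FPKM and was therefore not tested with the others. Wild-type replicates 1, 2 and 3 gave 0.768, 0.912 and 1.22 FPKM, and the knockout replicates in the same order gave 0.741, 0.834 and 0.565 FPKM. Knockout replicate 2 lay within the wild-type range and the other knockout libraries below it. The log2 fold change was -0.20, and -0.10 with wild-type replicate 3 left out. An exact permutation test gave p = 0.2, where 0.1 is the smallest that 3 against 3 allows. For Synpo and Ptpro the exact permutation p was 0.2, for Wt1 0.5 and for Magi2 0.9.

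**Figure D2:**
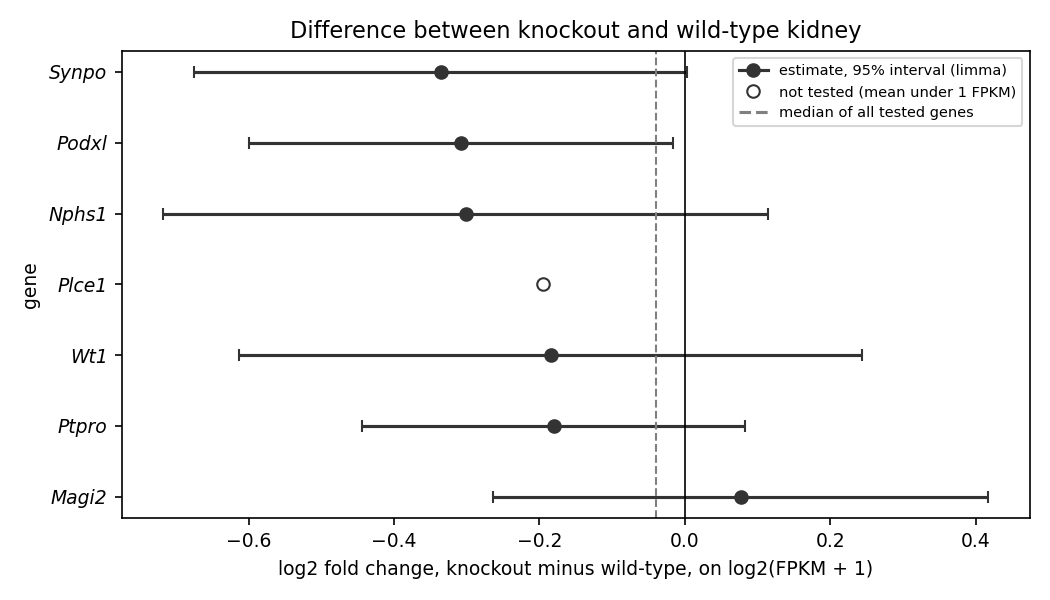
Log2 fold change of each gene, knockout minus wild-type, on the log2(FPKM + 1) scale, with unadjusted 95% intervals from limma and an open circle for Plce1, which was not tested. All intervals but that of Podxl include 0, and the dashed line marks the median of all tested genes at -0.04.

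Most of the 7 genes shared a course from library to library, and that course crossed the genotypes. After each gene was centred on its mean over the 6 libraries, the average of the 7 on the log2(FPKM + 1) scale was -0.09, 0.14 and 0.25 in wild-type replicates 1, 2 and 3 and 0.11, -0.13 and -0.29 in knockout replicates 1, 2 and 3. Wild-type replicate 1 thus lay below knockout replicate 1. Wild-type replicate 3 was the highest library for 5 of the 7 genes, and knockout replicate 3 was the lowest for 6. Magi2 was the exception to both, with its highest value in knockout replicate 1 and its lowest in knockout replicate 2, and Ptpro was highest in wild-type replicate 2. The sums of whole libraries had the same extremes, 417123 FPKM in wild-type replicate 3 and 381586 FPKM in knockout replicate 3. The share of all tested genes with these extremes was not counted, so the counts are not a trait shown to be particular to podocyte genes.

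Likeness between genes was measured as the root mean square distance between their centred values over the 6 libraries, where 0 means the same course. Nphs1 and Wt1 were each other's nearest neighbour among the 7, at 0.0873. Podxl and Synpo lay 0.0952 apart. The nearest of the 7 to Magi2 was Ptpro at 0.201. From the average course of the 7, which includes it, Magi2 lay at 0.202 and the other members at 0.0678 to 0.104, where the median of the 12168 other tested genes was 0.209.

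**Figure D3:**
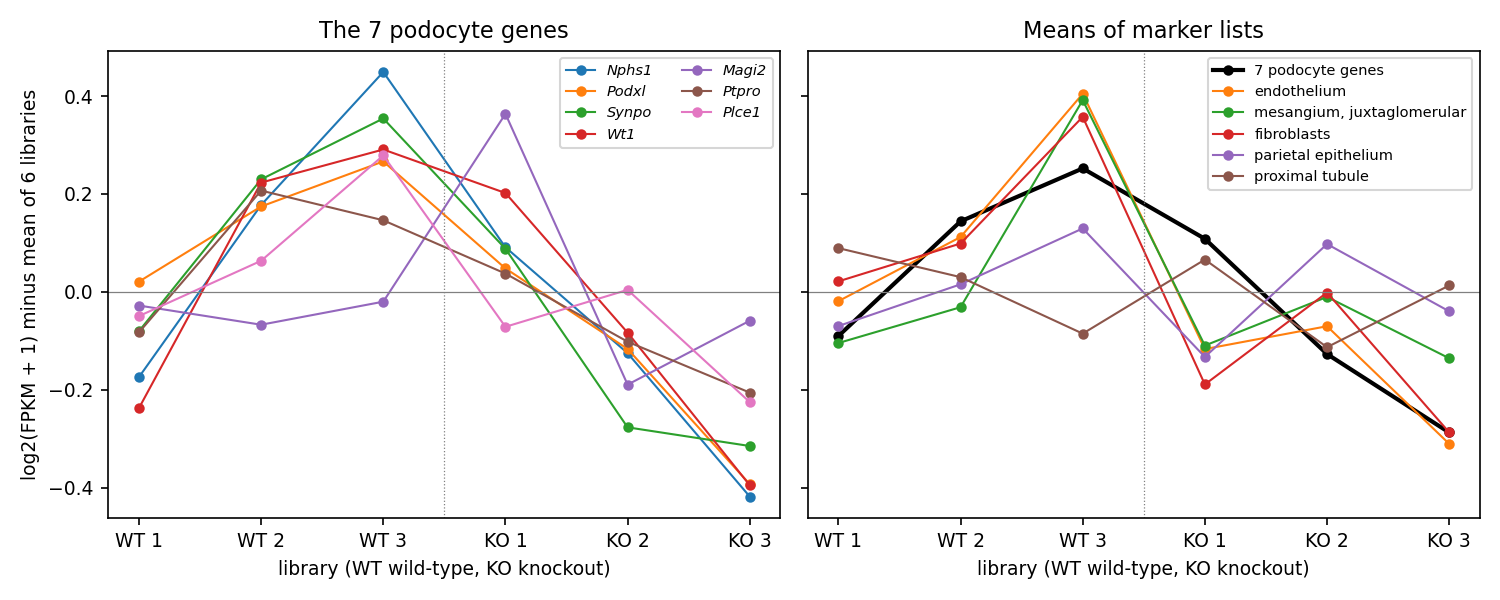
Log2(FPKM + 1) minus the mean of the 6 libraries (vertical axes) for each of the 7 genes (left) and for the mean of the 7 genes and of 5 marker lists (right), by library. Lines join the values of 1 gene or list and imply no order of the replicates, and the left panel shows 6 genes with a similar course and Magi2 apart from them.

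Of the other tested genes, leaving out those with only a gene model name, those nearest to the average course of the 7 were Cyp2d22 (distance 0.0378), a cytochrome P450, Bex4 (0.0397), Thsd7a (0.046), Med25 (0.0513), a subunit of the Mediator complex, and Klhdc8b (0.0514). Thsd7a, a podocyte surface protein known as an autoantigen of membranous nephropathy, was the 1 gene of these 5 that stood in the podocyte lists used here. It ranked 4 of 12168, with 1.20, 1.59 and 1.58 FPKM in the wild-type libraries and, in the same order, 1.47, 1.20 and 0.922 FPKM in the knockout libraries. Among the further podocyte genes listed for comparison, the intermediate filament gene Nes ranked 79, the natriuretic peptide receptor gene Npr3 85, and Ddn, which encodes the slit diaphragm partner dendrin, 162.

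The promoters of genes that follow this course are shown for some members with an entry in RefSeq's promoter table for GRCm38.p6. Each window runs from 250 bases before to 50 after the start site. Windows of 4 members were searched. Capitals mark GTGGGNG, the core of the sites that WT1 and the related EGR1 recognise, searched on both strands. Each lies on the plus strand of its chromosome. The windows span chr7:30459808-30460107, chr6:137252049-137252348 and chr19:38523947-38524246. The start site of the Ptpro window is that of the whole gene as given above, whereas those of Nphs1 and Plce1 lie 1851 and 43163 bases inside the span of their gene.
Nphs1: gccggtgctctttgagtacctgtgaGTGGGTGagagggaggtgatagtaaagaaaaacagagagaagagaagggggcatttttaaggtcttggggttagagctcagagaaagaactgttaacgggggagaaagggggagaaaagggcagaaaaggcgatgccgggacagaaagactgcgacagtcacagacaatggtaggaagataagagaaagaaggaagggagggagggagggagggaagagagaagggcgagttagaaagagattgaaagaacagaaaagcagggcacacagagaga
Ptpro: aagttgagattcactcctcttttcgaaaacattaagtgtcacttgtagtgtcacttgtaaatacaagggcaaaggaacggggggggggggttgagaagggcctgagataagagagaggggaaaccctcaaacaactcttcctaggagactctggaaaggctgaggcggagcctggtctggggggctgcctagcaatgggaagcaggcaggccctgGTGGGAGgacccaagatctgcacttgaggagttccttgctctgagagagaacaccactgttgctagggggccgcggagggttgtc
Plce1: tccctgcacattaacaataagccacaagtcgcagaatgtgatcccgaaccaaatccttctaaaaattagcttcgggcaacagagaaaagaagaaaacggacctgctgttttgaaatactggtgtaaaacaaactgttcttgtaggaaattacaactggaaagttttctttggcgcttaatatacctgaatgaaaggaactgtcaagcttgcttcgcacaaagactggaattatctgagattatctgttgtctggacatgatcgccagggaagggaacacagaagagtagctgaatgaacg

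The motif begins at position -225 from the start site of the Nphs1 window and at -35 from the start of Ptpro, and these letters are not in the Plce1 window. Magi2 has 2 entries, of which 1 holds the motif on the opposite strand. In all, 3 of the 5 member windows searched, which include none of Synpo, held it, and 31.6% of all 32851 promoter windows of that length did. Searches for TAATTA, a homeodomain core, and TGTTTAC, a forkhead core, found 1 and 0 of the 5 windows, against 5.29% and 3.65% of all. A match to these letters is a description of the sequence and no evidence of binding.

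None of the further podocyte genes passed the test either. Of 16 further slit diaphragm genes and adaptors, 12 were tested, 0 passed in either direction, and 12 of the 16 had a lower mean in the knockout, with a median log2 fold change of -0.07. Nck1, an adaptor that couples phosphorylated nephrin to actin, averaged 8.08 ± 0.892 FPKM against 6.50 ± 0.618 FPKM, wild-type first (SD, n = 3 each; limma adjusted p = 0.947), and its groups did not overlap. A gap of that kind, with the knockout lower, was found in 8.57% of all tested genes. Kirrel, which encodes the nephrin relative NEPH1, had log2 fold change -0.20, the kinase gene Fyn -0.22 and Efnb1 (ephrin-B1) -0.18.

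Of 16 further cytoskeleton genes 14 were tested and 0 passed, with a median log2 fold change of -0.08. Nes and Rhpn1 had -0.20 each, and Myh9, a non-muscle myosin of most cells, had -0.10. Pdlim2 had 0.13 and was the 1 gene of the list whose knockout values all lay above wild-type. A gap in that direction was found in 2.01% of tested genes. Several genes of this list, such as Actn4 and Ezr, are made by many kidney cells, and the list's summed level was 496 to 529 FPKM in wild-type and 501 to 515 FPKM in knockout libraries.

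The podocyte transcription list held 8 genes, of which 6 were tested and 0 passed. Tcf21, a basic helix-loop-helix factor of podocytes and stromal cells, had log2 fold change -0.49 (limma adjusted p = 0.971). Cdkn1c, the cell cycle inhibitor p57, had -0.37 (limma adjusted p = 0.973). Of 7 secreted and surface genes 6 were tested and 0 passed. Pla2r1, which encodes another autoantigen of membranous nephropathy, averaged 1.55 ± 0.317 FPKM against 0.989 ± 0.129 FPKM, wild-type first (SD, n = 3 each, limma adjusted p = 0.931). Its groups lay apart, and whether its reads come from podocytes was not tested. Npr3 had -0.23 on the log2 scale. Of 12 genes of the glomerular basement membrane and its receptors all were tested and 0 passed, with 6 lower and 6 higher and a median of -0.0023. Nid1 (nidogen) had -0.41 (limma adjusted p = 0.866) with groups apart, and Lamb2, the laminin chain of the mature membrane, had -0.28.

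Some markers of neighbouring cells were high and low in the same libraries as the podocyte genes. The 12 endothelial markers had a lower mean in the knockout in 12 of 12, with a median log2 fold change of -0.33 and 0 called, where 64.9% of all tested genes had a lower mean. For 8 of them all knockout values lay below wild-type, as in 8.57% of tested genes. Their centred mean was 0.40 in wild-type replicate 3 and -0.31 in knockout replicate 3, the same extremes as for the podocyte genes. Knockout replicate 1, which was above average for the 7 podocyte genes at 0.11, was below it for endothelium at -0.12. Summed endothelial markers ran from 116 to 162 FPKM in wild-type and from 89.9 to 113 FPKM in knockout libraries. Pecam1 had log2 fold change -0.36 and Tek -0.29. Since endothelium also makes Podxl, its part in the values of Podxl was not tested.

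Of 11 mesangial and juxtaglomerular markers 10 had a lower mean in the knockout (median -0.13, 0 called), with Itga8 at -0.44 and Gata3, which collecting duct cells also make, at -0.44. All 6 fibroblast markers had a lower mean (median -0.33, 0 of 5 tested called), with Col3a1 at -0.53 and Dcn at -0.35. These lists were also highest in wild-type replicate 3, at 0.39 and 0.36. Summed levels were 87.9 to 137 FPKM in wild-type and 91.1 to 95.3 FPKM in knockout libraries for the mesangial list, and 44.4 to 61.0 and 34.0 to 42.9 FPKM for fibroblasts. The part of these cells in the podocyte values was not tested.

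Parietal epithelial markers, from the cells that line the capsule around the glomerulus, were balanced, with 4 of 7 lower and 0 of 5 tested called, Pax8 at -0.25 and Pax2 at 0.12. The 12 proximal tubule markers had 7 lower and 5 higher and a median of -0.03, with 0 called. The 2 with the smallest limma p were both among the higher ones, Slc22a6 at 0.28 and Slc13a3 at 0.22. The lowest value of the list was -0.30. Leukocyte markers had 7 of 8 lower (median -0.08, 0 of 5 tested called), with Ptprc at -0.28 and C1qa at -0.14. Red cell transcripts were higher in all 5 (median 2.27, 0 of 4 tested called), with Hba-a2 at 2.27 and Hbb-bs at 2.33, each of which has a near-identical copy that can share reads. The nerve list was near 0, with a summed level of 1.83 to 5.47 FPKM over all libraries and Snap25 listed at 0 in each. Its tested member Uchl1 had a log2 fold change of -0.61, and 0 of 2 tested were called.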

How the data were processed

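Per the file's name and values, the authors deposited FPKM (scaled to transcript length and mapped total) in 1 table. Per the labels' protocols, a SMARTer mRNA kit turned total RNA into libraries. Per the submitters' processing notes the builds are GRCm38 and mm10, names of 1 assembly. Aligner, quantifier and strand use: not given in the sources used here. Columns were matched to samples by name and number, the knockout columns through the letters A8 that end HSPA8. The 34714 symbols matched RefSeq GRCm38.p6, the source of coordinates and promoters, and overlapping genes came from GENCODE for GRCm38.

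The gene test was limma 3.58.1 (R 4.3.3) on log2(FPKM + 1) (group only, variance trend, two-sided, Benjamini-Hochberg over 12174 genes with a mean of at least 1 FPKM, threshold 0.05). Such fold changes understate the change of low genes. The test was checked on simulated data. Single genes had an exact permutation test over 20 splits. Figures used matplotlib 3.10.9.

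The members and gene lists were chosen with earlier results of these data known. Named genes were all 7 members, Hspa8, the 2 tested members of each other list with the smallest limma p (4 for slit diaphragm and cytoskeleton), the 5 genes nearest to the members' mean course (leaving out model names) and genes overlapping a member. Of 13 such overlapping genes 1, Nphs1os, matched a symbol of the table. Slc34a1, Actn4, Ezr, Ddn and Snap25 were named after their values were seen. Replicate numbers were not treated as pairs. A few listed genes are not reported here by name, and list counts include them.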

Additional observations from a re-analysis of the deposited data

How the results depend on the processing

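Under each of the 16 alternatives 0 members were called, and 6 or 7 of the 7 had a lower mean in the knockout. Magi2 alone changed direction, to -0.086 without knockout replicate 1, with 0.191 without knockout replicate 2 and 0.20, its highest, without that and wild-type replicate 3. The median log2 fold change of the 7 genes ran from -0.35 (without wild-type replicate 1) to -0.13 (without knockout replicate 3). Beside the first of these it moved by over 1.5 times from -0.20 under 2 more settings, to -0.33 without knockout replicate 1 and to -0.32 with a pseudocount of 0.1. With a pseudocount of 0.1 Plce1, untested, had -0.38, the largest of the 7, where Synpo had the largest in the values reported. With both wild-type replicate 3 and knockout replicate 2 left out, an alternative added after earlier results were known, the median was -0.16. Over all tested genes limma called 5 genes then and 5 without knockout replicate 2, all of them globin genes, and 0 in the other 14 alternatives, so leaving out 1 replicate gave between 0 and 5. In the fit with a replicate block, 0 members and 0 genes were called. Same-numbered samples had correlations of their deviations of 0.307, -0.215 and -0.321. So few values, of mixed sign, cannot decide whether the numbers mark pairs. Depth is unknown, so the precision of genes near 1 FPKM (Magi2, Plce1) cannot be given beyond their spread.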
